A study of Mus musculus with 8 samples.

Results

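Potassium channel genes of blood stem cells were compared between old and young mice. The members were the genes whose symbol, in the authors' table of the whole series, starts with Kcn and goes on with subfamily letters and a closing number. By this rule 92 of 38172 genes were members. They fall into 77 genes of pore-forming families and 15 genes of auxiliary subunits. The members were selected on their symbols and not on a measured value, but the family was chosen with its values in old and young cells known, so all counts over it are descriptions.

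RNA was sequenced from haematopoietic stem cells (HSCs) of 24-month-old (old) and 4-month-old (young) wild-type C57BL/6 mice. The cells were sorted fresh from bone marrow as the side population (SP, cells that pump out a dye) within the Kit+ Sca-1+ lineage-negative fraction (KSL), with CD150 on the surface. Each age had 2 biological replicates, numbered 13 and 14, and each of these had 2 technical libraries, which gives 8 libraries. The number of animals behind a replicate is not in the labels, and the p-values therefore cover only the spread among these 4 samples.

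Potassium channels are membrane proteins that let potassium ions leave or enter the cell along their gradient and so set its resting voltage, volume and calcium entry. Voltage-gated channels open when the membrane depolarises, calcium-activated channels open when calcium rises in the cell, inward rectifiers pass current more easily inwards, and tandem-pore-domain channels leak at rest. In cells of the blood they are best known for the control of calcium entry in lymphocytes and of cell volume in red cells.

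Levels are given in 2 units. The scaled value is the number of reads times 1 factor per library, as the authors deposited it, and 1 read was worth between 0.62 and 1.84 units. The FPKM corrects that value for gene length and is used wherever genes are compared with each other, except within the marker lists. A replicate's value is the mean of its 2 technical libraries, and errors are SDs over the 2 replicates of an age. The estimated depth was 22.3 to 66.5 M reads per library, and the median absolute log2 difference between tested members was 0.13 for technical pairs and 0.29 for biological pairs of an age.

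Marker lists were summed in scaled values, which are not corrected for gene length. A list is therefore compared between replicates and not with another list. All 12 HSC markers passed the filter on low values, 2 of them were higher in old cells, and their summed scaled value was 161855.5 to 178779.5 in old and 139196 to 144492 in young cells, led by Kit. Passing the filter is not particular to HSC markers, since all 10 stroma and all 10 endothelial markers passed it too. Markers of other cells were present at several levels. Beside the calls in each list, 2.01% of all genes tested were called higher and 0.54% lower in old cells. Erythroid markers summed to 3097.5 to 3371.5 in old and 6793 to 7377.5 in young cells, with 5 of 9 tested lower in old. Stroma markers summed to 3097.5 to 3314 in old and 7195 to 7841 in young cells, with 3 of 10 lower. Megakaryocyte and platelet markers, led by Vwf, summed to 56685.5 to 64614 in old and 29635 to 37484.5 in young cells, with 1 of 9 higher. Neutrophil markers, led by Mpo, summed to 13882 to 28354 in old and 14471 to 54798 in young cells, with young replicate 14 the highest and 0 of 11 called. Neuron and glia markers summed to 7781 to 8915 in old and 7969 to 8416 in young cells, nearly all of it Mbp, at 7259.5 and 8624 in old and 7497 and 8023.5 in young cells. Of the 9 matched in that list, 0 of the 4 tested were called, and Rbfox3, Snap25, Sox10 and Syt1 stayed under 3 in all 4 replicates. Calls in the other lists were 1 lower of 11 monocyte, 0 of 4 mast cell, 0 of 9 B cell, 1 higher of 4 T and NK cell, 1 higher and 1 lower of 6 dendritic cell and 3 higher of 10 endothelial markers. The part of these cells in the results on potassium channels was not tested, and in bulk RNA fewer cells of a type and less RNA per cell cannot be told apart.

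The pore of a potassium channel is lined by a short conserved stretch, the signature sequence, whose backbone oxygens hold the ion. A search of the longest annotated coding sequence (GENCODE vM21, GRCm38) for threonine or serine, any residue, glycine, then tyrosine, phenylalanine or leucine, then glycine found it in 77 of 77 members of the pore-forming families. It was found in 0 of the 15 auxiliary members, and in 5.42% of all 21562 protein-coding genes. Each of the 14 tandem-pore-domain members held at least 2 matches, but so did Kcnh2 and 1 voltage-gated pore gene. The coding stretches are shown for members that the comparison of ages turns on and for Kcnk5, the most abundant leak channel here, 27 bases each, 5′ to 3′ on the gene's strand, with the codons of the last 3 residues (glycine, a variable residue, glycine) in capitals.
Kcnb2, chr1:15710040-15710066, plus strand, exon 2 of 2: atgaccactgtgGGCTACGGTgacatt
Kcna4, chr2:107296489-107296515, plus strand, exon 2 of 2: atgacaactgtgGGCTATGGGgacatg
Kcna3, chr3:107037605-107037631, plus strand, exon 1 of 1: atgacaactgttGGTTATGGTgatatg
Kcnk12, chr17, minus strand, first match, split between exons 1 and 2: gtgtcgaccataGGTTTCGGCatgaca
Kcnk12, chr17:87746447-87746473, minus strand, second match, exon 2 of 2: ttcagcaccatcGGCTTCGGGgacctg
Kcnk6, chr7, minus strand, first match, split between exons 1 and 2: gtcaccaccgtgGGCTATGGCtacacg
Kcnk6, chr7:29225530-29225556, minus strand, second match, exon 2 of 3: ctgtccaccattGGCCTAGGGgactac
Kcnk5, chr14, minus strand, first match, split between exons 2 and 3: atcaccaccatcGGTTATGGCaatgtg
Kcnk5, chr14:20144642-20144668, minus strand, second match, exon 4 of 5: atctccaccattGGCTTTGGGgacttt

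The variable residue was tyrosine in the 3 members with 1 match shown here. Of the 3 tandem-pore-domain genes shown, Kcnk12 had phenylalanine in both matches, Kcnk5 had tyrosine and then phenylalanine, and Kcnk6 had tyrosine and then leucine. In these 3 genes an intron interrupted the 27 bases of the first match and not those of the second.

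Few members made up most of the channel RNA. Of the 92 members 11 averaged at least 1 FPKM over the 4 replicates, 29 at least 0.1, and Kcnc4, Kcnj4 and Kcnk15 were at 0 in all 8 libraries. Kcnn4, the intermediate-conductance calcium-activated channel that red cells use to lose potassium and water, stood first at 50.6 FPKM and held 37.1% of the summed FPKM of the family. Kcnab2, a cytoplasmic beta subunit of voltage-gated channels, followed at 25.8 FPKM, and Kcnk5, a leak channel sensitive to pH, at 21.7. These 3 genes held 72.0% of the family's sum. Kcna3, the voltage-gated channel known from T cells, averaged 8.49 FPKM and Kcnip3, a calcium-binding partner of voltage-gated channels that also acts as a transcriptional repressor, 7.59. Kcns1 (3.98), Kcnk6 (3.22), Kcnk12 (1.92), Kcnq5 (1.85), Kcnd1 (1.45), Kcnh2 (1.25) and Kcnab1 (0.865) completed the 12 highest, all in FPKM.

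The order depended on age for some members. Kcnn4 was the highest member in each of the 4 replicates. Kcnab2 averaged above Kcnk5 at both ages. They stood at 22.0 ± 0.39 and 20.3 ± 2.6 FPKM in old cells, and at 29.6 ± 0.52 and 23.1 ± 0.27 FPKM in young cells (SD, n = 2). In old replicate 14 Kcnk5 was the higher, at 22.1 against 21.7 FPKM. Kcnip3 stood above Kcna3 in old cells, at 9.83 ± 0.17 against 6.04 ± 0.47 FPKM, and below it in young cells, at 5.34 ± 0.74 against 10.9 ± 0.47 FPKM. Kcnk6 likewise stood above Kcnk12 in old cells, at 4.30 ± 0.37 against 0.887 ± 0.10 FPKM, and below it in young cells, at 2.15 ± 0.021 against 2.95 ± 0.029 FPKM.

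**Figure D1:**
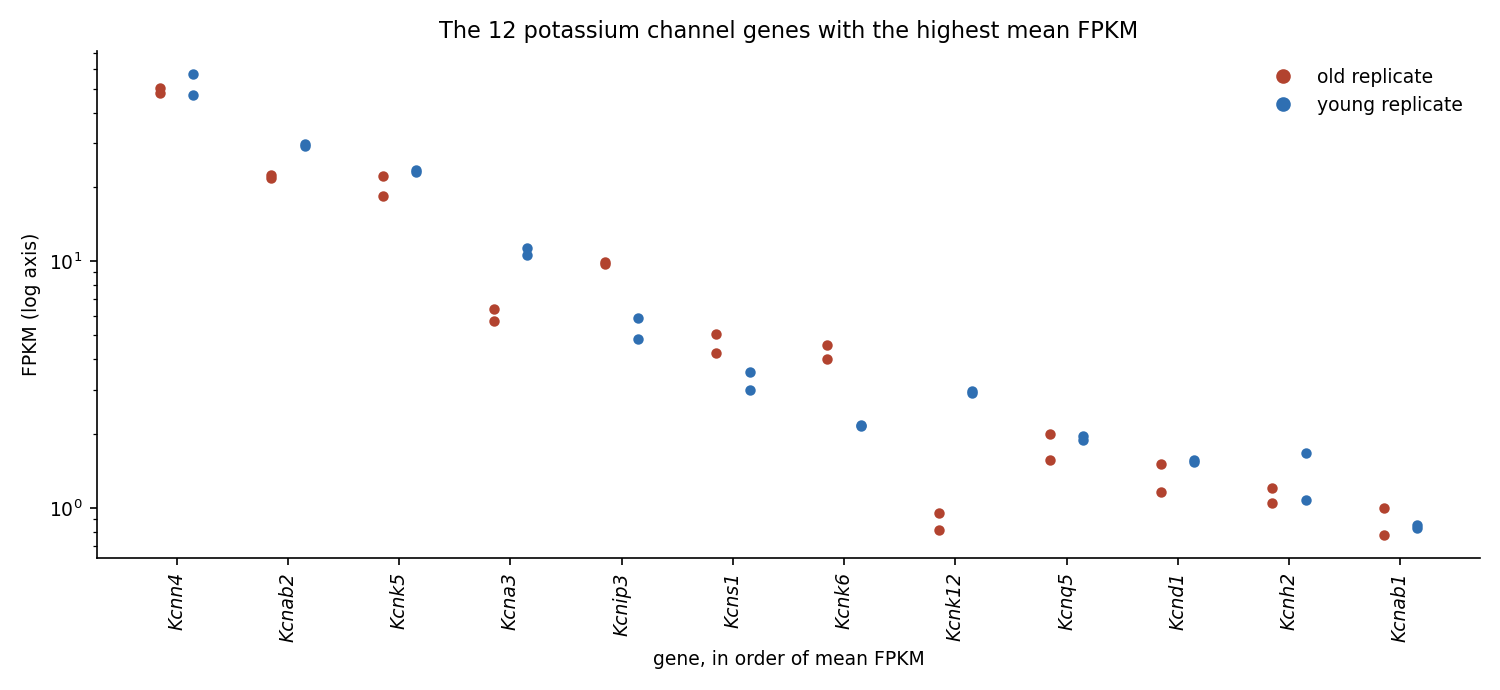
FPKM (log axis) of the 12 members with the highest mean level, in order of their mean, 1 point per biological replicate, old cells in red at the left and young cells in blue at the right of each gene. Kcnn4 is highest in all 4 replicates, and Kcnip3 is above Kcna3 in old cells and below it in young cells.

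The family as a whole was close between the ages. Its summed level was 128 and 133 FPKM in old replicates 13 and 14, against 148 and 136 FPKM in young replicates 13 and 14. The ages did not overlap, and the old mean was 0.919 times the young one, with no test made on the sum. By class, the ratio of summed FPKM in old to young cells was 0.764 for voltage-gated pores, 1.28 for silent voltage-gated subunits, 0.851 for the EAG, ERG and ELK family, 0.982 for KCNQ channels, 0.944 for calcium- or sodium-activated channels, 0.901 for inward rectifiers, 0.905 for tandem-pore-domain channels and 0.916 for auxiliary subunits. Each of these sums is carried by 1 or a few abundant genes. Leaving out 1 replicate turned the direction for 4 classes, in log2 ratios of old to young. Inward rectifiers went to 0.23 without young replicate 14, against -0.15 with all replicates. The EAG, ERG and ELK family went to 0.12 and the calcium- or sodium-activated channels to 0.07 without young replicate 13, against -0.23 and -0.08. KCNQ channels went to 0.08 without old replicate 13, against -0.03.

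**Figure D2:**
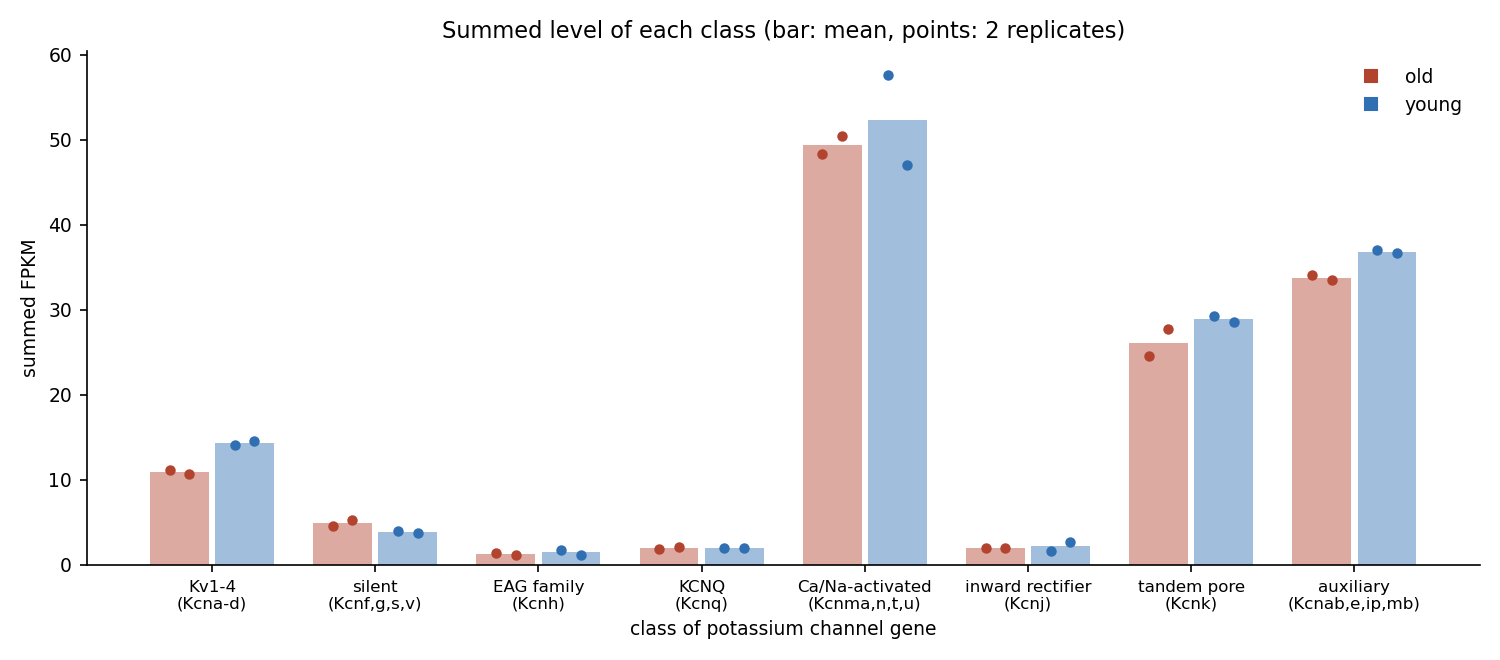
Summed FPKM of each class of potassium channel genes, with bars for the mean of an age and points for its 2 replicates, old cells in red and young cells in blue. Voltage-gated pores average 10.9 FPKM in old and 14.3 FPKM in young cells, and silent voltage-gated subunits 4.97 FPKM in old and 3.88 FPKM in young cells.

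The comparison of old with young cells was tested with limma, a linear model on log2(scaled value + 0.5), with adjustment by the Benjamini-Hochberg method over all 18318 genes that had at least 10 units in at least 2 of the 4 replicates. Of the 92 members 35 passed this filter, and 57 did not. Kcnb2, Kcnn2, Kcna4 and Kcnt2 passed it through old cells alone, so these 4 had to differ in order to be tested. At an adjusted p under 0.05, 8 members were called, beside 2.55% of all genes tested. Of these 6 were higher in old cells, among them Kcnb2, Kcnn2, Kcna4, Kcnk6 and Kcnip3, beside 2.01% of all genes tested. Kcnk12 and Kcna3 were lower, beside 0.54%. Over the tested members the median log2 fold change was 0.05, against 0.04 over all genes, and 18 of 35 were above 0, beside 56.5%. Both replicates of one age lay beyond both of the other in 21 of the 35, beside 42.1% of all genes.

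These calls rest on all 4 replicates. Without old replicate 13, and likewise without old replicate 14, limma called none of the genes tested, and so no member. Without young replicate 13 the called members were Kcnb2, Kcnn2 and Kcna4, and without young replicate 14 they were Kcnb2 and Kcnn2. The sign of each of the 8 changes was the same in all 4 of these fits. In each of the 8 both replicates of an age lay beyond both of the other. Leaving out a single replicate could therefore not turn the sign.

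**Figure D3:**
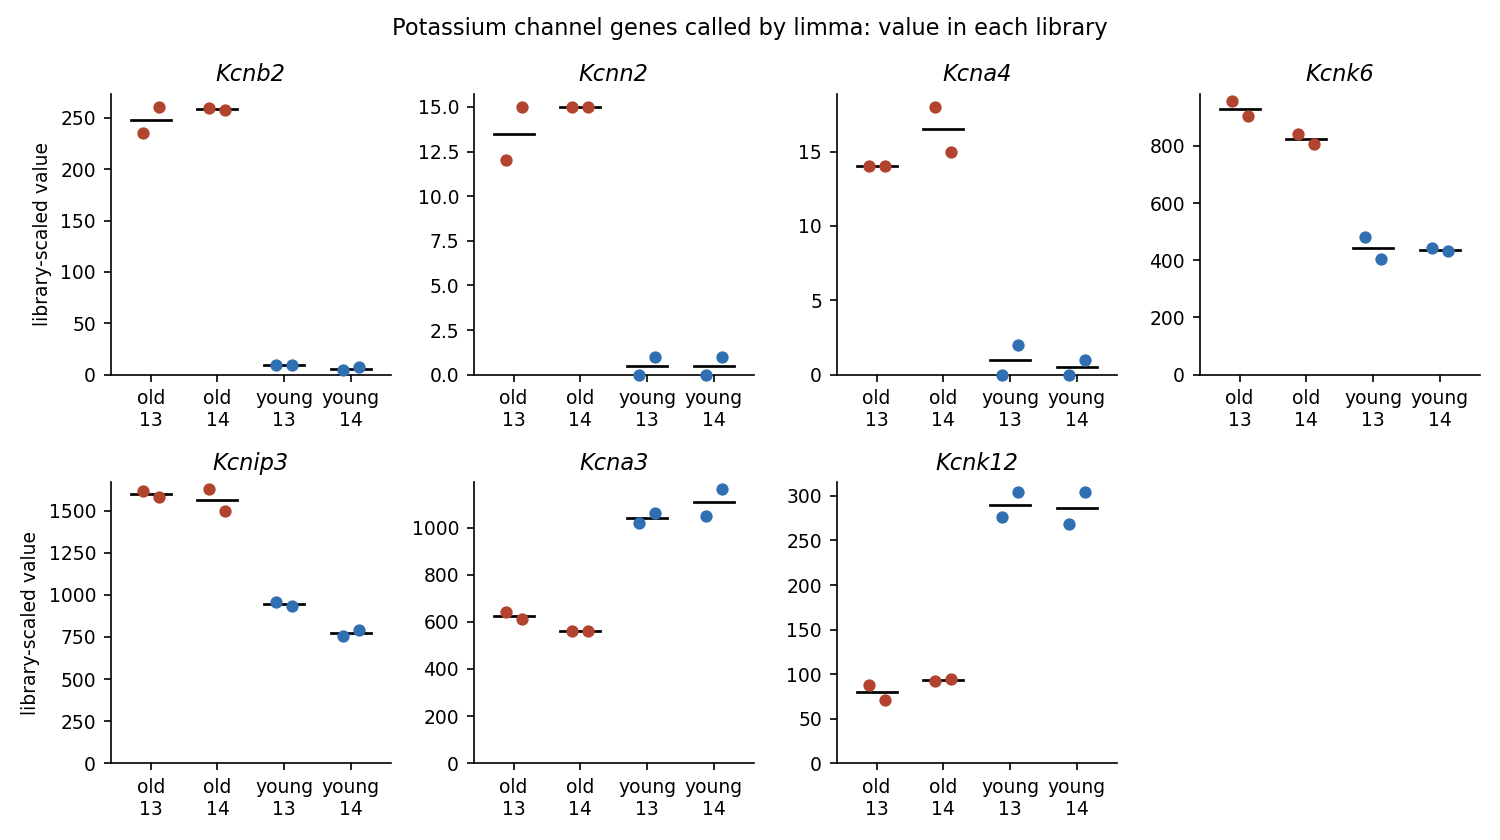
Scaled values of 7 called members in each library (points), with a line at the mean of the 2 technical libraries of a replicate, old replicates in red at the left and young ones in blue at the right, each axis starting at 0. Kcnb2 averages 248 and 259 in the old replicates and 9 and 6 in the young ones, and Kcnk12 79.5 and 93.5 in the old replicates and 290 and 286 in the young ones.

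**Figure D4:**
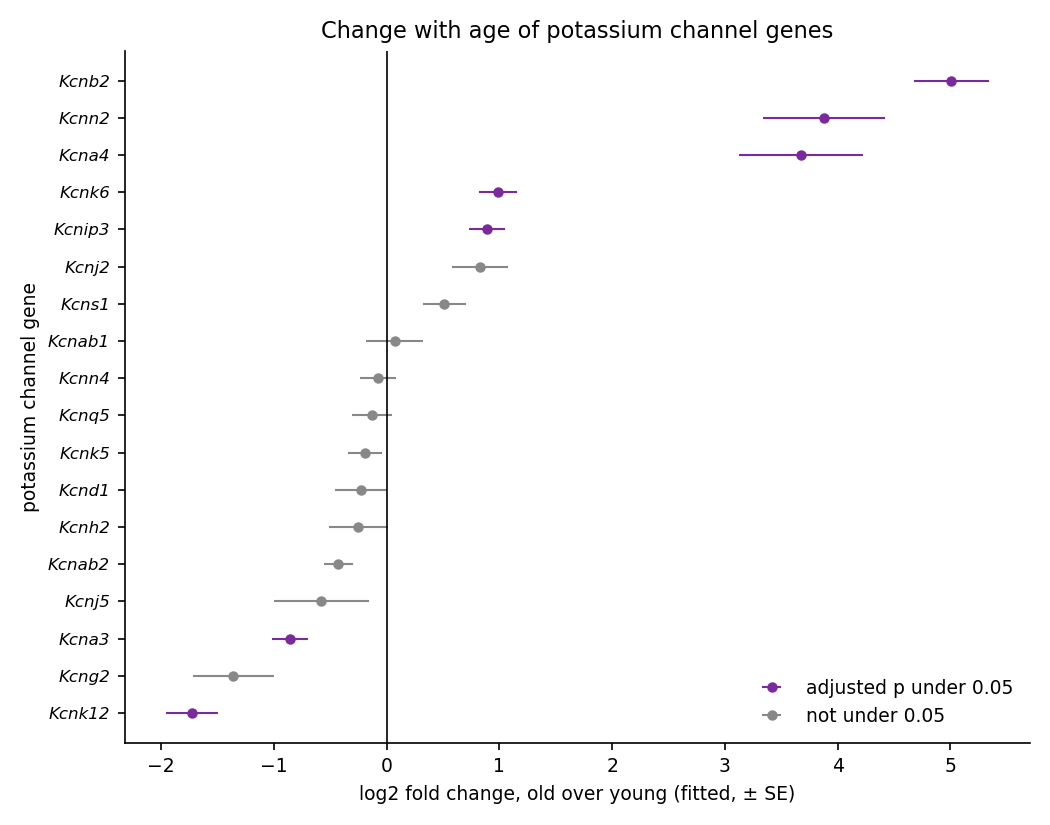
Log2 fold change, old over young, of 18 tested members in order of the change, with bars of 1 standard error from limma, purple for an adjusted p under 0.05 and grey for the others. Kcnb2 has the highest fitted change, at 5.01, and Kcnk12 the lowest, at -1.73.

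Voltage-gated pore subunits, which join in fours to form a channel that opens on depolarisation, held the highest fitted change of the family. Of 17 members 9 were tested, with 3 higher, among them Kcnb2 and Kcna4, and 1 lower (Kcna3) in old cells. Kcnb2, a delayed rectifier known from neurons, had scaled values of 248 and 259 in old cells, against 9 and 6 in young cells. Its 4 old libraries held 235, 261, 260 and 258, and its 4 young libraries 9, 9, 5 and 7. Technical libraries lay close to each other. Kcnb2 passed the filter through old cells alone, so its ages had to differ for it to be tested. The fitted change was 5.01 (SE 0.33) on the log2 scale, a 32.3-fold difference, with an adjusted p of 0.00197 in limma. Estimated reads numbered 904 in old and 33 in young cells, which is 32.6 times as many in old cells once divided by depth (exact 95% interval 23.1 to 47.7, counting error only). The level remained low, at 0.955 ± 0.029 FPKM in old and 0.0283 ± 0.0080 FPKM in young cells (SD, n = 2). Without 1 replicate at a time the change of Kcnb2 lay between 4.74 and 5.29, with adjusted p between 0.000987 and 0.158 and over 0.05 when either old replicate was left out. Kcnb2 spans chr1:15302533-15704295 on the plus strand (mm9) and overlapped no other gene model.

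Kcna4, whose channels inactivate fast, had scaled values of 14 and 16.5 in old cells, against 1 and 0.5 in young cells. The 4 old libraries held 14, 14, 18 and 15, and the 4 young libraries 0, 2, 0 and 1. The fitted change was 3.68 (SE 0.55), with an adjusted p of 0.0215 in limma. It rests on an estimated 53 reads in old and 4 in young cells, which is 15.8 times as many for the depth (exact 95% interval 5.82 to 60.1, counting error only). This interval, like those of Kcnb2, Kcnn2 and Kcnt2, allows neither for the filter passed through old cells alone nor for the spread between replicates. At 0.0630 FPKM in old and 0.0031 FPKM in young cells Kcna4 was among the low members. With a pseudocount of 5 in place of 0.5 the change of Kcna4 was 1.81, and without 1 replicate its adjusted p lay between 0.0259 and 0.276, under 0.05 only without young replicate 13.

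Kcna3 was the highest voltage-gated pore gene and the only one of the class called lower in old cells. Its scaled values were 627 and 562 in old cells, against 1042.5 and 1107.5 in young cells. The spread within each age was small beside the gap, at 594.5 ± 46.0 in old and 1075 ± 46.0 in young cells (SD, n = 2). The change was -0.86 (SE 0.16), which is 0.553 of the young level, with an adjusted p of 0.0439 in limma. Without 1 replicate it lay between -0.93 and -0.78, with adjusted p between 0.150 and 0.366. Of the other tested members of the class, Kcnd1, a pore of fast-inactivating currents, had 157 and 204 in old cells, against 212.5 and 207 in young cells, and its change of -0.23 was not called (adjusted p = 0.755).

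Silent voltage-gated subunits form no channel of their own and join other voltage-gated subunits such as Kcnb2, whose currents they modify. Of 10 members 3 were tested and 0 were called. Kcns1 was the highest of them and had scaled values of 575.5 and 688.5 in old cells, against 483.5 and 406.5 in young cells. The ages did not overlap, and the change of 0.51 (SE 0.19) had an adjusted p of 0.286 in limma. Kcng2 went the other way in its values, at 26 and 18.5 in old cells, against 49.5 and 65.5 in young cells, with a change of -1.36 (SE 0.36) and an adjusted p of 0.127. In FPKM, Kcns1 stood at 4.67 ± 0.59 in old and 3.29 ± 0.40 in young cells, above Kcnb2 at each age.

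The EAG, ERG and ELK family and the KCNQ family held 0 called members, with 2 of 8 and 2 of 5 tested. Kcnh2, the ERG channel of cardiac repolarisation, had scaled values of 255.5 and 221 in old cells, against 350.5 and 227 in young cells, where 1 young replicate was as low as the old ones (adjusted p = 0.767). Kcnq5, a subunit of slow M-type currents, had 542.5 and 691.5 in old cells, against 658.5 and 681.5 in young cells, with overlapping ages (adjusted p = 0.834).

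Channels opened by calcium or sodium on the inner side of the membrane numbered 8, of which 4 were tested and 1 was called. Kcnn4 carried nearly all of the class and had scaled values of 4858.5 and 5083.5 in old cells, against 5821.5 and 4756 in young cells. The old values lay between the young ones, at 49.0 ± 1.6 FPKM in old and 52.2 ± 7.4 FPKM in young cells (SD, n = 2), and the change of -0.08 (SE 0.16) had an adjusted p of 0.882 in limma. Kcnn2, a small-conductance channel known from neurons, had scaled values of 13.5 and 15 in old cells, against 0.5 and 0.5 in young cells. Its old libraries held 12, 15, 15 and 15, and its young libraries 0, 1, 0 and 1. Kcnn2 passed the filter through old cells alone, so its ages had to differ for it to be tested. The fitted change was 3.88 (SE 0.54), with an adjusted p of 0.0175 in limma, and 1.81 with a pseudocount of 5. In estimated reads it was 51 in old and 3 in young cells, 20.3 times as many for the depth (exact 95% interval 6.55 to 101.0, counting error only). Without 1 replicate its adjusted p lay between 0.0300 and 0.241, over 0.05 when either old replicate was left out.

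Kcnt2, a sodium-activated channel, also passed the filter through old cells alone. It had scaled values of 14 and 10 in old cells, against 3 and 1.5 in young cells. The change of 2.22 (SE 0.55) had an adjusted p of 0.109 in limma and was not called. Its estimated reads numbered 40 in old and 11 in young cells, 4.33 times as many for the depth (exact 95% interval 2.18 to 9.36, counting error only). That interval allows neither for the filter nor for the spread between replicates.

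Inward rectifiers, which hold the resting voltage near that of potassium, numbered 15, of which 5 were tested and 0 were called. Kcnj2, the classical strong rectifier, had scaled values of 152 and 162.5 in old cells, against 79 and 99 in young cells. The ages did not overlap, and the change of 0.83 (SE 0.25) had an adjusted p of 0.183 in limma. Kcnj5, a subunit of the channels that G proteins open in heart and brain, was the highest of the class. It had 122.5 and 154.5 in old cells, against 130 and 326 in young cells. Young replicate 14 stood alone, with 320 and 332 in its 2 libraries, while young replicate 13, with 140 and 120, lay within the range of the old libraries. Kcnj5 had a change of -0.58 (SE 0.42) with an adjusted p of 0.644, and without young replicate 14 the change was 0.08. Replicate 14 of the young cells also held the highest sums of neutrophil, monocyte and mast cell markers. Monocyte and macrophage markers summed to 1780.5 and 3513 in old cells, against 2190 and 6525.5 in young cells. Mast cell and basophil markers summed to 691.5 and 951 in old cells, against 513 and 2574.5 in young cells. The part of such cells in the value of Kcnj5 was not tested.

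Tandem-pore-domain channels, whose subunits carry a pair of pore segments each and which set the leak of potassium at rest, had 1 member higher and 1 lower in old cells among 5 tested of 14. Kcnk12, a channel that in cell culture is kept largely inside the cell and gives little current of its own, fell to 79.5 and 93.5 in old cells, against 290 and 286 in young cells. The young replicates were almost equal, and the old ones lay far under them. The change was -1.73 (SE 0.23), which is 0.301 of the young level, with an adjusted p of 0.0137 in limma. In FPKM it was 0.887 ± 0.10 in old and 2.95 ± 0.029 in young cells (SD, n = 2). Without 1 replicate the change of Kcnk12 lay between -1.85 and -1.62, with adjusted p between 0.0600 and 0.194. Kcnk12 spans chr17:88145161-88197334 on the minus strand (mm9) and overlapped no other gene model.

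Kcnk6, a channel found in endosomes and lysosomes, had scaled values of 931 and 824 in old cells, against 443 and 437 in young cells. Its values did not overlap between the ages, at 877.5 ± 75.7 in old and 440 ± 4.2 in young cells (SD, n = 2), and the change was 0.99 (SE 0.17) with an adjusted p of 0.0309 in limma. Without 1 replicate it lay between 0.90 and 1.08, with adjusted p between 0.139 and 0.218. Kcnk5, by far the highest of the class, had 3095.5 and 3708 in old cells, against 3905.5 and 3842 in young cells. Both old values were under both young ones, but the change of -0.19 (SE 0.15) was not called (adjusted p = 0.667).

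Auxiliary subunits form no pore and change the gating or the transport of those that do. Of 15 members 5 were tested and 1 was called. Kcnip3 had scaled values of 1600.5 and 1561.5 in old cells, against 944 and 775 in young cells. The ages did not overlap, and the change was 0.89 (SE 0.16), a 1.85-fold difference, with an adjusted p of 0.0416 in limma. Without 1 replicate it lay between 0.74 and 1.03, with adjusted p between 0.107 and 0.393. The channel pores that Kcnip proteins bind, those of the Kcnd genes, stood at 1.34 FPKM in old and 1.55 FPKM in young cells for Kcnd1 and at 0.824 FPKM in old and 0.846 FPKM in young cells for Kcnd3, with neither called.

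Kcnab2 had scaled values of 4195 and 4092.5 in old cells, against 5500 and 5637.5 in young cells. The replicates of each age were close, at 22.0 ± 0.39 FPKM in old and 29.6 ± 0.52 FPKM in young cells (SD, n = 2). The change of -0.43 (SE 0.13) had an adjusted p of 0.198 in limma and was not called. Kcnab1, the related beta subunit, had 116 and 148 in old cells, against 123.5 and 126.5 in young cells, with overlapping ages and a change of 0.07 (adjusted p = 0.946).

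The 57 members that did not pass the filter reached at most 16.5 units in a replicate. They were 8 voltage-gated pores, 7 silent subunits, 6 of the EAG, ERG and ELK family, 3 KCNQ channels, 4 calcium- or sodium-activated channels, 10 inward rectifiers, 9 tandem-pore-domain channels and 10 auxiliary subunits. Just inside the limit on the second highest replicate were Kcnt2 at 10 and Kcng3 at 12, and just outside it were Kcnj14 at 9 and Kcne3 at 8.5. At these values a difference between the ages was not detectable at this depth for most members, which is not evidence that it is absent.

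Some members that lie side by side in the genome differed in level, while in other such pairs both members were low. On chromosome 3 Kcna3 averaged 8.49 FPKM, while Kcna2, 63.4 kb away, averaged 0.0630 and Kcna10, a further 68.1 kb away, 0.00959. On chromosome 14 Kcnk5 averaged 21.7 FPKM, and Kcnk16, 81.0 kb away, 0.00286. The promoter window of 250 bases before the gene start, from RefSeq sequence (GRCm38.p6), was available for 67 members. It held at least 10 CpG dinucleotides (the letters CG, which read the same on both strands) in 17 of 24 tested members (70.8%), against 13 of 43 members not tested (30.2%). Over all genes of the table the shares were 70.8% of 10107 tested and 16.7% of 5975 not tested. The share among tested members equalled that among all tested genes.

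The authors' deposited table gives a log2 fold change and an FDR per gene for the same comparison, and a mark that went with an FDR below 0.05 together with an FPKM sum over both ages of 1 or more. It marks 11.8% of the 22284 genes that it tests. Among the members the authors' deposited table marks 4 as higher, among them Kcnip3, Kcnk6 and Kcns1, and 4 as lower in old cells, Kcna3, Kcnab2, Kcnj5 and Kcnk12. Kcnip3, Kcnk6, Kcna3 and Kcnk12 were called in both. In the authors' deposited table Kcnb2 has a log2 fold change of 5.03 and an FDR of 7.79e-77 without a mark, and its FPKM sum was 0.984. Kcnn2 and Kcna4 are likewise without a mark in the authors' deposited table, at FDRs of 5.64e-06 and 5.5e-05, with FPKM sums of 0.145 and 0.0661. For Kcnab2 the authors' deposited table has a log2 fold change of -0.45 and an FDR of 0.00193, and for Kcnj5 -0.76 and 8.83e-04. For Kcns1 the FDR in the authors' deposited table is 0.00739. Which libraries entered the authors' test as replicates is not given there.

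Other genes of ion transport, among them genes of accessory proteins that move no ions themselves, were taken from lists of 132 symbols. Of these 129 matched the table and 65 were tested. Among the 65 tested, 1 was higher and 1 lower in old cells, a share near the 2.55% called among all genes. The 13 tested of 22 other potassium channel or accessory genes, the 2 of 10 cyclic nucleotide-gated channels, the 15 of 29 potassium pumps and transporters, the 5 of 15 sodium channels and the 13 of 26 calcium channels held 0 calls. The store-operated and TRP calcium entry channels, 17 tested of 30, held both. Trpc1, a cation channel of the TRP family, had scaled values of 567.5 and 685.5 in old cells, against 76.5 and 75.5 in young cells. Its change was 3.03 (SE 0.21) with an adjusted p of 0.00197 in limma. Trpm2, a calcium-permeable channel opened by ADP-ribose and oxidative stress, fell to 37 and 37 in old cells, against 109.5 and 126 in young cells, a change of -1.65 (SE 0.27) with an adjusted p of 0.0309. Trpc1 was not called when old replicate 13 or old replicate 14 was left out, and Trpm2 was not called when any 1 of the 4 replicates was left out or in either technical library alone. Among the most abundant genes of the lists were Vapa, Hcn3, Cacnb2 and Trpc6, and none of these 4 was called.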

How the data were processed

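Sorted HSC RNA was selected for polyA tails and made into TruSeq libraries, per the labels' protocols. Per the submitters' processing notes, the authors used build mm9 and the tool DESeq, whose version and role are not stated. The sources used here give neither the aligner and counter nor the use of strand.

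The deposited values named like counts are a score: the authors' reads times 1 library factor, rounded to integers, as tested on the values. In 4 libraries 129, 32, 137 and 13 of the whole numbers up to 300 are skipped, with 0 genes on them. The factor was estimated from this spacing (0.617 to 1.839), and scaled totals were 40.7 to 44.2 M. The deposited FPKM is that score times 1 constant per gene. The log2 fold change and the FDR (an adjusted p-value) in the authors' deposited table are copied and named as theirs.

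Technical libraries were averaged. Age was the single term of a model of log2(score + 0.5) over the 4 biological replicates, made with limma 3.58.1 under R 4.3.3 with an empirical Bayes trend, and two-sided p-values were adjusted by Benjamini-Hochberg over 18318 genes. The fit was tested on simulated data, where it called 17% of 2-fold and 71.8% of 4-fold changes. Simulated replicates varied independently, whereas same-numbered real samples deviated together (correlation 0.54). The changed genes were drawn from all tested genes, so these shares are not those of low members. A gene that was not called may therefore still differ between the ages. Fold changes are old over young. The added 0.5 pulls the change of low genes towards no change, and passing the filter through old cells alone favours a higher one. Read intervals are exact 95% intervals for a ratio of Poisson counts. They pool the libraries of an age and allow neither for the filter nor for the spread between replicates.

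The members and all lists were chosen with earlier results of these data known. Named were called members, the 12 highest by FPKM, the highest and the smallest-p member of each class, members called differently in the authors' table, called and most abundant genes of the other lists, and the leading gene of marker lists. Kcnt2, Kcnd3, Kcna2, Kcna10, Kcnk16, Kcng3, Kcnj14, Kcne3 and the genes at 0 were named after their values were seen. Some genes that this rule names are not reported here. Alternatives were the pseudocount, the filter, the scaling, single technical libraries, the model and left-out replicates. Sequences come from GENCODE vM21 and RefSeq.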

Additional observations from a re-analysis of the deposited data

How the results depend on the processing

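Calls over all genes, over members and over the other ion lists were 467, 8 and 2 as reported. Pseudocounts of 1 and 5 gave 467, 8 and 2 and 482, 8 and 2, median-ratio factors 435, 7 and 2, and quantile normalization 425, 6 and 2. Without a filter on low values 0, 0 and 0 were called (2943, 20 and 25 at an unadjusted p under 0.05), and among genes averaging 1 FPKM or more 302, 3 and 1 were, with 11 members tested. Technical library 1 alone gave 293, 3 and 1, and technical library 2 alone 314, 4 and 1. Limma without the trend gave 320, 4 and 2, and limma-voom 342, 4 and 2. Leaving out 1 replicate at a time gave 0 to 274 calls over all genes, 0 to 3 over members and 0 to 3 over the other lists, with 0 in all when either old replicate was left out (3669 and 1933 genes at an unadjusted p under 0.05). There the lone sample of an age is assumed to vary like the pair of the other. The cause of these differences was not tested. With the replicate block, the number 13 or 14 as a term beside age, 2766, 16 and 17 were called. The ages share these numbers, same-numbered samples deviated together with a correlation of 0.54, and nothing in the labels ties them to a litter or day. Among the 16 members called with the block were Kcnab2, Kcng2, Kcnj2, Kcns1 and Kcnt2, which were not called without it. All 8 called members kept their sign in every alternative run, and leaving out 1 replicate could not have turned it. Of 13 alternatives without the block Kcnb2 was called in 10, Kcnn2 in 9 and Kcna4 in 8. Of 14, Kcnk12 was called in 9, Kcnk6 in 6, and Kcna3 and Kcnip3 in 4 each. The changes of Kcnn2 and Kcna4 were lowest with a pseudocount of 5, at 1.81 each, and highest in technical library 1 alone, at 4.80 and 5.03. The log2 ratio of summed FPKM was -0.39 for voltage-gated pores, with -0.32 and -0.46 in technical library 1 and 2 alone, and -0.13 for auxiliary subunits, with -0.17 under median-ratio factors. It changed sign without 1 replicate for 4 classes, inward rectifiers (-0.45 to 0.23), the EAG, ERG and ELK family (-0.52 to 0.12), calcium- or sodium-activated channels (-0.22 to 0.07) and KCNQ channels (-0.14 to 0.08). The median log2 fold change of all genes stayed between -0.01 and 0.07. Depth limits the members under about 10 units, where a few reads decide a value.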
